A study of Mus musculus with 58 samples.

Results

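The glycolysis enzymes described here were 10 genes taken by symbol, *Hk1*, *Gpi1*, *Pfkm*, *Pfkp*, *Aldoa*, *Tpi1*, *Pgk1*, *Eno2*, *Ldha* and *Ldhb*. All 10 were found among the 31246 genes listed for each of 2 brain regions, the entorhinal cortex (EC) as well as the primary visual cortex (PVC). The RNA came from male C57Bl/6 mice aged 14 to 15 months, 10 of the *APOE3/3* and 19 of the *APOE3/4* genotype, with 58 libraries and the same 29 animal numbers in both regions. All of these mice are *APOE* targeted replacement animals, in which human *APOE* alleles stand in place of mouse *Apoe* under the mouse promoter. The study's mice, which include others used for imaging, came from 2 colonies. Which colony the sequenced mice came from is not stated. The EC was chosen in the study as a region vulnerable to Alzheimer's disease and the PVC as a resistant one.

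Each value below is a mean normalized count, the authors' mean over the 29 libraries of a region with both genotypes pooled. Values of single mice were not analysed here, so these means carry no error, no comparison between *APOE3/4* and *APOE3/3* mice was made, and no difference between regions could be tested. The study's own comparison of the genotypes was not used here. The tables of the EC and the PVC were normalized separately, so every level set across them depends on a scaling. PVC values were multiplied by 1.86, which puts the median gene at a ratio of 1 among the 15642 genes whose mean normalized count reached 10 in both tables. A gene was counted as higher in a region when its scaled level exceeded that in the other region by at least 25%, which is a description and not a test.

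Glycolysis splits glucose into pyruvate in the cytosol and gains ATP and NADH on the way. Hexokinase and phosphofructokinase carry out its early ATP-consuming and largely irreversible reactions, whereas aldolase, the isomerases, phosphoglycerate kinase and enolase work close to equilibrium. Lactate dehydrogenase interconverts pyruvate and lactate. It is a tetramer of an A subunit, encoded by *Ldha* and typical of glycolytic tissues, and a B subunit, encoded by *Ldhb* and typical of heart and neurons. In the brain, neurons consume most of the energy, and lactate is exchanged between glia and neurons.

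All 10 enzymes were abundant in both regions. The 10 genes together held 0.612% of the summed mean normalized counts of the EC and 0.623% of those of the PVC. By mean normalized count, *Aldoa* was the 24th gene of the EC table and the 25th of the PVC table, and the lowest of the 10, *Ldha*, stood at position 535 in the EC against 681 in the PVC. Levels of different genes were compared per kilobase of annotated exon. On that scale the range from the lowest to the highest enzyme was 14.0-fold in the EC and 13.5-fold in the PVC. From the highest down, the order in the EC was *Aldoa*, *Tpi1*, *Ldhb*, *Pgk1*, *Eno2*, *Gpi1*, *Pfkm*, *Ldha*, *Hk1* and *Pfkp*. In the PVC, *Ldhb* stood above *Tpi1*, *Eno2* above *Pgk1* and *Pfkm* above *Gpi1*, with the other genes in the same places. Without values of single mice, it cannot be said which neighbours in this order differ beyond their spread.

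**Figure D1:**
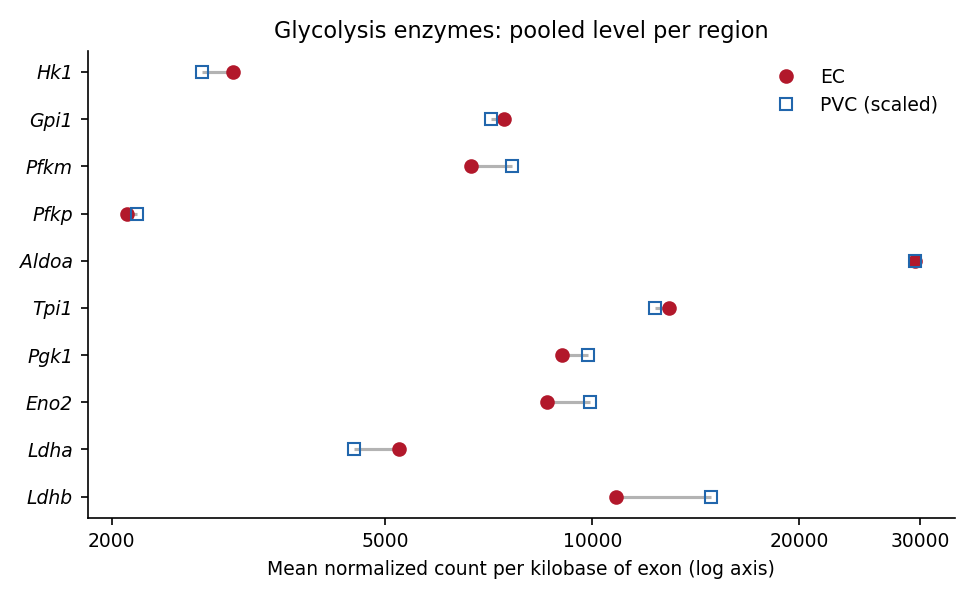
Mean normalized count per kilobase of exon (log axis) of the 10 enzymes in the EC (filled circles) and in the PVC after scaling (open squares), each the authors' mean over 29 libraries, without error bars because no values of single mice were used. *Aldoa* lies at 29490.5 in the EC against 29479 in the PVC, and the widest gap between regions is that of *Ldhb*, at 10826 in the EC against 14861 in the PVC.

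Between regions, most of the 10 enzymes differed by less than 25%, as did most genes. None was at least 25% higher in the EC, where 14.4% of all genes past the count minimum were, and 1 of the 10, *Ldhb*, was at least 25% higher in the PVC, where 11.1% of all genes were. Those shares come from 2251 and 1738 of 15642 genes. The log2 ratio of EC over PVC was above 0 for 5 enzymes and below 0 for the other 5, with a median of -0.02 against 0 for all genes by construction. The 5 above 0 included *Aldoa*, at 0.0006, whose sign depended on the scaling. The median absolute log2 ratio was 0.14 for the 10 enzymes and 0.15 for all genes. Among the 1149 genes with a mean of at least 5000 in both tables, 6.27% were higher in the EC against 13.5% in the PVC. Their median absolute log2 ratio was 0.13. This range was chosen after the levels of the enzymes were seen.

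**Figure D2:**
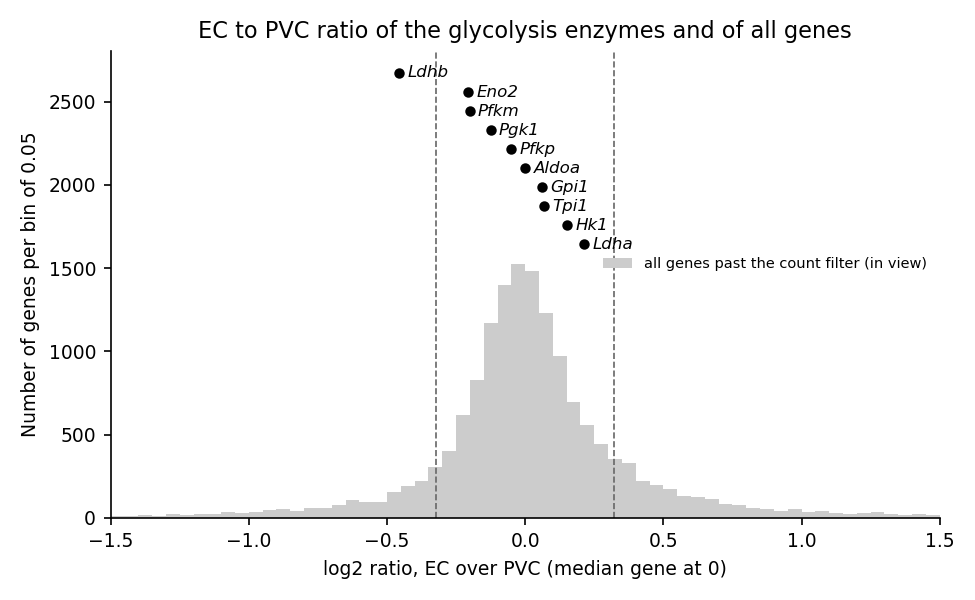
Log2 ratio of the mean normalized count in the EC over that in the PVC, with the median gene at 0. Grey bars count all genes past the count minimum in bins of 0.05, black points mark the 10 enzymes (their height only separates the names), and dashed lines mark a 25% difference. *Ldhb*, at -0.46, is the only enzyme outside the lines.

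Hexokinase, which traps glucose in the cell by phosphorylation, came almost entirely from *Hk1*, the isozyme bound to mitochondria in neurons. *Hk1* lies at chr10:61731603-61842656 on the minus strand of NCBIM37 (mm9), the build of all gene coordinates given here. Its mean normalized count was 25611 in the EC against 12423 in the PVC, or 23068 after scaling, a log2 ratio of 0.15. Among the 4 hexokinase genes described here, it made up 95.5% of the counts per kilobase in the EC against 90.7% in the PVC. The other part held *Hkdc1*, a hexokinase-like gene, whose share was 2.38% in the EC against 7.63% in the PVC. The mean normalized count of *Hkdc1* was 384 in the EC and 1168 in the scaled PVC, which was 3.04-fold higher in the PVC. *Hk2*, the insulin-responsive isozyme of muscle and fat, was low in both regions, at 248 in the EC and 183 in the scaled PVC, and *Hk3* was lower still, at 92.2 in the EC. Summed per kilobase over the 4 genes, hexokinase had a log2 ratio of 0.08.

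*Gpi1*, which converts glucose 6-phosphate to fructose 6-phosphate and is the only gene of its step, lies at chr7:34987141-35015308 on the minus strand. It had a mean normalized count of 33436 in the EC against 17260 in the PVC, or 32050 after scaling, a log2 ratio of 0.06. Per kilobase it was 7435 in the EC and 7127 in the scaled PVC.

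Phosphofructokinase, the main control point of glycolysis, drew on 3 genes that encode subunits of mixed tetramers. *Pfkm*, the muscle-type subunit at chr15:97923020-97962878 on the plus strand, had a mean normalized count of 20290 in the EC against 12563 in the PVC, or 23328 after scaling, 1.15-fold higher in the PVC. *Pfkp*, the platelet-type subunit at chr13:6579014-6648023 on the minus strand, had 19767 in the EC against 11025 in the PVC, or 20472 after scaling, a log2 ratio of -0.05. These 2 genes gave nearly equal counts in the EC, with a *Pfkm* to *Pfkp* ratio of 1.03 that became 1.14 in the PVC. *Pfkm* was the larger contributor per kilobase, with 60.3% of the step in the EC against 64.5% in the PVC, whereas *Pfkp* held 19.1% and 18.4%. *Pfkl*, the liver-type subunit, held 20.6% and 17.1%. With the longest transcript as the length, *Pfkp* held 30.4% and 29.5% and *Pfkl* 19.2% and 16.1%, so that *Pfkp* was the larger of the pair in the EC too. The ratio of *Pfkm* to *Pfkl* counts was 2.03 in the EC against 2.62 in the PVC, and neither ratio depends on the scaling of the tables.

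*Aldoa*, the muscle-type aldolase that splits fructose 1,6-bisphosphate, was the most abundant of the 10 enzymes. It lies at chr7:133938748-133944265 on the minus strand and had a mean normalized count of 81217 in the EC against 43721 in the PVC, or 81184 after scaling. Its log2 ratio was 0.00 and took either sign among the other scalings, from -0.03 to 0.04. *Aldoc*, the brain isozyme found mainly in astrocytes and Purkinje cells, was likewise level between regions, with a log2 ratio of -0.02. The *Aldoa* to *Aldoc* count ratio was 2.10 in the EC against 2.08 in the PVC. *Tpi1*, at chr6:124760604-124764314 on the minus strand, interconverts the products of aldolase. It had 28585 in the EC against 14682 in the PVC, or 27263 after scaling, a log2 ratio of 0.07. Per kilobase *Tpi1* ranked after *Aldoa* in the EC, at 12940, and after *Aldoa* and *Ldhb* in the PVC, at 12342.

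*Pgk1*, at chrX:103382439-103399038 on the plus strand, makes the first ATP of the payoff phase. It had a mean normalized count of 20260 in the EC against 11900 in the PVC, or 22097 after scaling, a log2 ratio of -0.13. It held nearly all of its step, since the testis paralog *Pgk2* had means of 0.025 in the EC against 0.033 in the PVC. *Gapdh* and *Pkm*, not among the 10 enzymes, flank this stretch of the pathway and were close to the median gene, with log2 ratios of 0.01 and -0.04. *Pgam1*, a mutase between *Pgk1* and enolase, had 0.02, and its muscle paralog *Pgam2*, at 310 in the EC and 157 in the scaled PVC, was 1.98-fold higher in the EC.

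Enolase dehydrates 2-phosphoglycerate, and its *Eno2* and *Eno1* genes leaned in opposite directions. *Eno2*, the neuron-specific enolase at chr6:124710071-124719691 on the minus strand, had a mean normalized count of 40404 in the EC against 25121 in the PVC, or 46646 after scaling, 1.15-fold higher in the PVC. *Eno1*, the ubiquitous isozyme, had 34702 in the EC and 32199 in the scaled PVC, a log2 ratio of 0.11. The *Eno2* to *Eno1* count ratio was 1.16 in the EC against 1.45 in the PVC, a 1.24-fold difference that does not depend on the scaling. Per kilobase, *Eno2* held 56.0% of enolase in the EC against 61.2% in the PVC. With the longest transcript as the length these shares became 45.3% and 50.7%, so that *Eno1* was the larger in the EC. *Eno3*, the muscle isozyme, held 1.95% and 1.80%.

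The lactate dehydrogenase genes *Ldha* and *Ldhb* had ratios on opposite sides of 0. *Ldha*, at chr7:54096845-54110997 on the plus strand, had a mean normalized count of 15581 in the EC against 7233 in the PVC, or 13430 after scaling, 1.16-fold higher in the EC. *Ldhb*, at chr6:142438769-142456477 on the minus strand, had 16997 in the EC against 12565 in the PVC, or 23332 after scaling, 1.37-fold higher in the PVC. *Ldha* had the highest log2 ratio of the 10 enzymes, 0.21, and *Ldhb* the lowest, -0.46. Among all genes past the count minimum, *Ldha* stood at the 79.0th percentile of the ratio and *Ldhb* at the 7.28th. The *Ldha* to *Ldhb* count ratio, which does not depend on the scaling, was 0.917 in the EC against 0.576 in the PVC. With counts per kilobase the ratio was 0.483 in the EC against 0.303 in the PVC. The 1.59-fold difference between regions depends on neither scaling nor length. Per kilobase, *Ldha* held 32.6% of the lactate dehydrogenase counts in the EC against 23.3% in the PVC, and *Ldhb* was the larger in both. *Ldhc*, the testis gene, had means of 0.404 and 0.421. Summed per kilobase over its genes, lactate dehydrogenase had a log2 ratio of -0.27, the farthest from 0 of the 11 steps, followed by phosphoglycerate kinase at -0.13 and phosphofructokinase at -0.10.

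**Figure D3:**
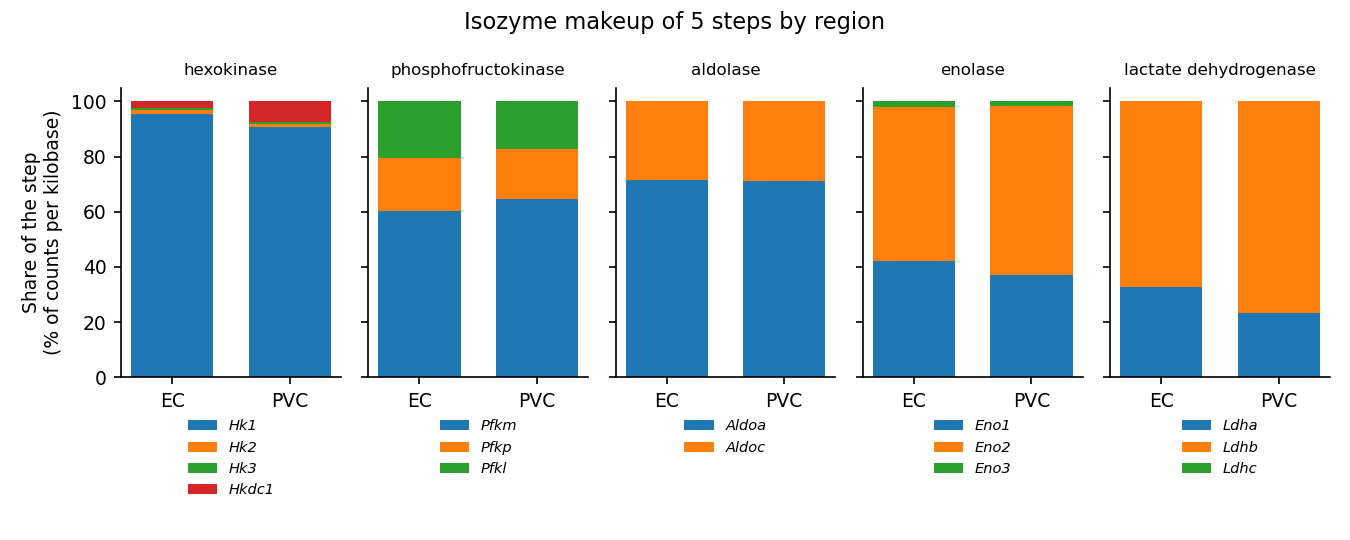
Share of each gene in the summed counts per kilobase of its step (percent, bars adding to 100) by region, for the 5 steps with more than 1 expressed gene among the 10 enzymes' steps. The *Ldha* share was 32.6% in the EC against 23.3% in the PVC, while that of *Aldoa* was 71.3% and 71.1%.

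The promoters of *Ldha* and *Ldhb* are shown because these genes lay at the opposite ends of the 10 ratios. Each sequence is the 250 bases before the most upstream start given by RefSeq, in GRCm38.p6, a later build than that of the counts. That of *Ldha* is chr7:46845554-46845803 on the plus strand, and that of *Ldhb* is chr6:142507958-142508207 on the minus strand. Capitals mark ACGTG read on either strand, as ACGTG or CACGT, so overlapping matches merge. ACGTG is a form of the core bound by hypoxia-inducible factors and is shared with the CACGTG E-box. The form GCGTG was not searched, marked or counted in any window, and it occurs in the *Ldhb* sequence. 5′ to 3′ the sequences read as follows.
*Ldha*: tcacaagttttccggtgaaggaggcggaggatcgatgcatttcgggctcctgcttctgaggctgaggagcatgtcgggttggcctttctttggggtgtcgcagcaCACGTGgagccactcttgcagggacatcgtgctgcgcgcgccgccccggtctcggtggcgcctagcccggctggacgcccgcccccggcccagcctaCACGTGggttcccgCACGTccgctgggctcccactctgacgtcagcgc
*Ldhb*: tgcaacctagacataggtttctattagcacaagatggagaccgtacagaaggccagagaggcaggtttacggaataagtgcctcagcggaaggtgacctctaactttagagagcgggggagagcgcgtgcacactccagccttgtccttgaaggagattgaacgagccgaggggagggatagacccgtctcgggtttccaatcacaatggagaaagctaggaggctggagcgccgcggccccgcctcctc

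The *Ldha* window shown held 3 such stretches, 25 CpG dinucleotides and 67.2% G and C. A later *Ldha* window, at chr7:46846832-46847081, held 0 of them, 9 CpG dinucleotides and 54.4% G and C, so the *Ldha* values depend on the start chosen. The *Ldhb* window held 0 of these letters in this order, 14 CpG dinucleotides and 56.4% G and C. Of all 10 enzymes, which matched 17 RefSeq windows, 3 held the letters in their most upstream window, *Ldha*, *Pfkm* and *Pgk1*, and *Aldoa* held them in a later window only. Of the most upstream windows of 27025 genes, 16.5% held them. The log2 ratios of *Ldha*, *Pfkm* and *Pgk1* were 0.21, -0.20 and -0.13, and a link between these letters and the ratios was not tested. The median number of CpG dinucleotides in the most upstream window was 13.5 for the 10 enzymes, with a range of 0 to 25. It was 6 for the 27025 genes, which were not limited to genes past the count minimum or of like level.

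The genes around the pathway were described from lists, given as counts and as the highest and lowest ratios. Beside these counts stand the shares of all genes past the count minimum, 14.4% higher in the EC and 11.1% in the PVC. Lists this short cannot be told apart from those shares. Of 15 other isozyme genes of the same 11 steps, 12 passed the count minimum, *Hk2* and *Pgam2* were at least 25% higher in the EC, *Hkdc1* at least 25% higher in the PVC, and the median log2 ratio was 0.03. Of 7 regulators, *Pfkfb1* was higher in the EC, with a log2 ratio of 0.41, and *Pfkfb3* in the PVC, with -0.64. *Pfkfb3* makes fructose 2,6-bisphosphate, an activator of phosphofructokinase, and had a mean normalized count of 1184 in the EC and 1850 in the scaled PVC. *Pfkfb4* and *Bpgm* came next in order, at 0.22 and -0.12.

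Among 8 glucose, lactate and pyruvate transporters, 2 were higher in the EC against 1 in the PVC. The former were *Slc2a4*, the insulin-responsive glucose transporter, with a log2 ratio of 1.11 at a mean of only 41.8 in the scaled PVC, and *Slc16a3*, the lactate exporter of glia, with 0.65. The latter was *Mpc1*, a subunit of the mitochondrial pyruvate carrier, with -0.35, and *Slc2a1*, the glucose transporter of the blood-brain barrier, followed at -0.16. Of 11 genes of pyruvate oxidation, the pyruvate dehydrogenase phosphatase gene *Pdp1* was 2.10-fold higher in the PVC and the kinase gene *Pdk3* 1.31-fold higher in the EC. *Pdha1* and *Pcx* came next, at 0.10 and -0.12.

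The pentose phosphate pathway, which branches from glucose 6-phosphate, had 0 of 7 genes past 25% in either direction. The shares of all genes were 14.4% in the EC direction and 11.1% in the PVC direction. *Pgd* and *Pgls* had its highest log2 ratios, 0.16 and 0.12, and *G6pdx* and *Rpia* its lowest, -0.27 and -0.11. Of 6 gluconeogenic genes, only *Pck2* and *G6pc3* passed the count minimum, with log2 ratios of 0.33 and -0.00. *Fbp1*, *Fbp2*, *Pck1* and *G6pc*, best known from liver, kidney and muscle, were below 10 in both tables.

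Markers of several cell types also differed between the regions. In bulk tissue, fewer cells of a type and less RNA per cell cannot be told apart. Both oligodendrocyte markers were higher in the PVC, *Mbp* with a log2 ratio of -1.37 and *Mog* with -1.51, and their sum was 23692 in the EC and 61277 in the scaled PVC. Of 5 neuronal markers, all but *Rbfox3* were matched by symbol or RefSeq synonym, and their summed level was 1.22-fold higher in the PVC, from *Snap25* at -0.55 to *Slc17a7*, the glutamate transporter of cortical excitatory neurons, at 0.14. The summed astrocyte markers were 1.21-fold higher in the EC, where *Gfap* had 0.62 and *Aqp4* 0.54, but *Aldh1l1* had -0.35. Microglial and endothelial sums were 1.09-fold and 1.01-fold higher in the EC. *Ttr*, made by the choroid plexus, had -2.18, whereas *Kl* had 0.02. Summed hemoglobin genes were 1.44-fold higher in the EC. *Acta1*, of skeletal muscle, had -0.60, but *Myh4* had 0.18 and *Ckm* had a mean of 10.2 in the EC. Of the liver genes, *Alb* was below 1 in both tables, and *Apoa2* had 0.44 at a mean of 26.2 in the EC. The part of these markers in the ratios of *Ldha*, *Ldhb*, *Eno1* and *Eno2* was not tested.

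**Figure D4:**
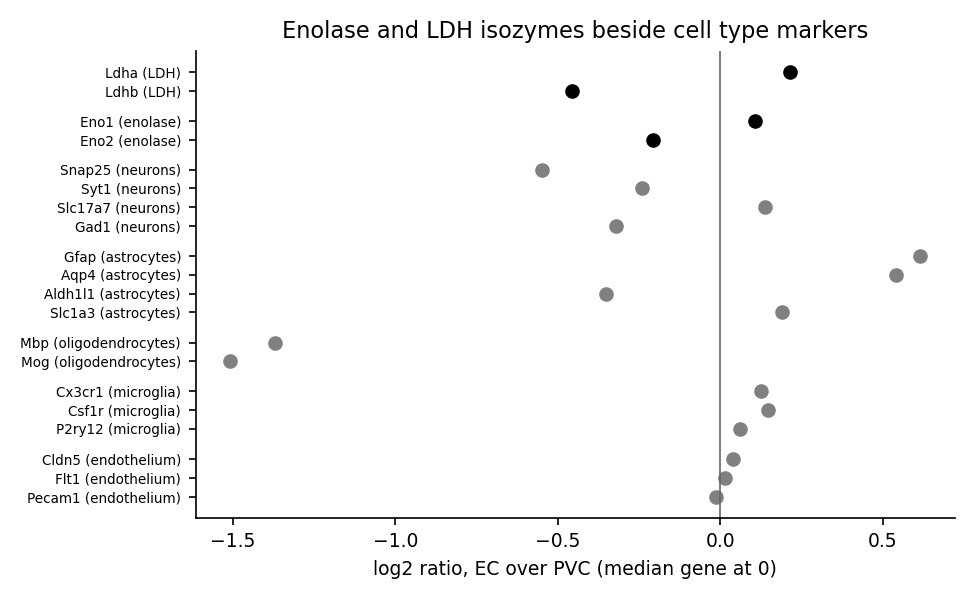
Log2 ratio of EC over PVC (median gene at 0) of the lactate dehydrogenase and enolase genes (black) and of the markers of 5 cell types (grey), 1 point per gene. *Ldhb* and *Eno2* lie on the PVC side with *Snap25*, *Syt1*, *Gad1*, *Aldh1l1* and the oligodendrocyte markers, and *Ldha* and *Eno1* on the EC side with *Slc17a7*, *Gfap*, *Aqp4*, *Slc1a3* and the microglial markers.

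Several of the enzymes have near-identical copies in the genome, and how reads that match several places were counted is not given in the sources used here. A search of NCBIM37 with 1 transcript per gene found 28 copies of at least 90% identity over at least 149 bases, the read length, outside the genes themselves. For *Pgk1*, 86.4% of all 149-base windows of the transcript had an exact match elsewhere, mainly in copies on chr12:10905369-10907119 and chr3:57906491-57908218 with 99.7% identity each. For *Ldha*, 15 copies lay on 10 chromosomes, no window matched exactly, and 10.6% of windows matched with at most 2 mismatches. For *Ldhb*, a single copy at chr19:22011773-22013057 was 97.6% identical, and 34.1% of windows matched with at most 2 mismatches. *Gpi1*, with 56.6% of such windows, and *Tpi1*, with 23.9%, stood between these, *Aldoa* had 5 more distant copies and 0% of such windows, and *Hk1*, *Pfkm*, *Pfkp* and *Eno2* had 0 copies. The levels of *Pgk1*, and less so those of *Gpi1*, *Ldhb*, *Tpi1* and *Ldha*, are therefore uncertain.

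Exons of other genes on the opposite strand overlapped 4 of the enzymes, and the library kit does not keep the strand. The overlap was 16.5% of the exon bases of *Gpi1*, with the noncoding gene *Gm17327*, and 3.96% of those of *Pfkp*, with *Pitrm1*, whose mean normalized count was 2140 in the EC. For *Hk1* and *Tpi1* it was 1.84% and 1.54%. Reads from such stretches cannot be told apart by gene.

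For each enzyme, the gene nearest in level was the one with the smallest distance in log2 level over the EC and the scaled PVC, which are only 2 points. *Srcin1* was nearest to *Hk1*, at a log2 distance of 0.009, *Eef1a2* to *Eno2* at 0.063 and *Kcnab2* to *Ldhb* at 0.031. *Prickle2* was nearest to *Ldha*, at 0.026. *Ptprs*, *Apbb1*, *Rbfox2*, *Huwe1* and *Dnajc5* were nearest to *Gpi1*, *Pfkm*, *Pfkp*, *Tpi1* and *Pgk1*. *Aldoa* was the most isolated, with *Spna2* at 0.092.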

How the data were processed

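RNA-sequencing data of 29 EC and 29 PVC libraries were analysed, grouped by region and genotype from the labels, which describe 2 EC and 5 PVC libraries as run more than once for depth. Per the study's methods, poly(A)+ libraries (TruSeq v2) were sequenced as 149-base single-end reads, aligned to mm9 with TopHat2 2.0.6 and Bowtie2 2.0.2.0, and counted with HTSeq on an NCBIM37 annotation described as holding only protein-coding genes. In the tables, 4701 of the 31246 symbols, 876 of them among the 15642 genes past the count minimum, match only other gene types in GENCODE M1. The authors compared the genotypes with DESeq2 1.10.1 and deposited 1 table per region. The mean normalized count, a signal, was deposited by the authors and averages size-factor-normalized counts over the libraries of 1 region. The other columns hold their log2 fold changes, standard errors, Wald statistics and *p*-values of *APOE3/4* against *APOE3/3*, and were not used here. Over all genes the mean normalized counts add up to 49385488 (EC) and 27058393 (PVC), and library depths were not analysed here.

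Levels were scaled to the median gene, and lengths came from GENCODE M1, with 90.2% of the genes past the count minimum of 10 matched by symbol. Copies were searched with blastn. Python 3.11.15, numpy 2.4.6, pandas 2.3.3 and matplotlib 3.10.9 were used. The scaling was run on simulated counts with a known factor and no variation between animals. That run checks the calculation and not whether the scaling suits these data. The enzymes and lists were chosen with earlier results of these data known. The named genes are all 10 enzymes, their isozymes (some listed genes are not reported here and enter no count or share of a list), and the 2 highest and 2 lowest ratios of each other list. Among others, *Pkm* and *Mpc1* are listed in the tables as *Pkm2* and *Brp44l*. The ratios between paralogs, the search for copies and overlaps, the promoter motif and the genes above 5000 were chosen after the values were seen. Alternatives were other scalings, count minima, fold limits and gene lengths.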

Additional observations from a re-analysis of the deposited data

How the results depend on the processing

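With the tables scaled to the same sum, to the same upper quartile, or to the median of genes with at least 100, at least 5000 or any count above 0 in both, every log2 ratio of EC over PVC moved by -0.03 to 0.04. The scaling to genes with at least 5000 was added after the data were seen. Over these settings *Ldhb* had a log2 ratio of -0.48 to -0.42 and *Ldha* of 0.19 to 0.25, and 9 of the 10 enzymes kept their sign. The median log2 ratio of the 10 enzymes ran from -0.05 to 0.01 and did not keep its sign. With a difference of 10% in place of 25%, 2 enzymes were higher in the EC against 3 in the PVC, and with 50% the count in the PVC was 0, which follows from the limit itself. The shares of all genes past 10% and past 50% were not computed, so these counts have no background to be read against. The order of the enzymes by level depended on the length used, and 16 of 40 positions were the same with the longest transcript or without length correction. No paired analysis was possible because the tables hold 1 mean per region and no values of single mice, and for the same reason no replicate could be left out.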
